A study of Homo sapiens with 6 samples.

Results

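The genes described here code for the proteins of the cytosolic ribosome. They were taken by name: symbols made of RPL or RPS, digits and an optional suffix A, X, L or L1, together with RPLP0, RPLP1, RPLP2 and RPSA. Of 23617 symbols with values for MDA-MB-231, 85 met this rule, with 46 canonical members of the large subunit, 31 of the small subunit and 8 paralogs, whose symbols end in L or L1. Symbols that the rule leaves out, such as RPL36AL, are not counted among them. The cells were MDA-MB-231, an established human breast cancer line, and HMLER, human mammary cells that had been transformed in vitro. Decitabine (DAC, 5-aza-2'-deoxycytidine) is a cytidine analog that is built into DNA and traps DNA methyltransferases. For each line, untreated cells were compared with cells given 10 µM DAC every day and collected 72 h after the first dose. Polyadenylated RNA was sequenced from 1 untreated and 1 DAC library of MDA-MB-231 and from 2 untreated and 2 DAC libraries of HMLER, each library being a pool of several RNA extractions. Values are FPKM, fragment counts divided by transcript length and by library size, with the transcripts of a symbol summed. As each condition of MDA-MB-231 is 1 library, no test of a difference was possible and the values are given as a description of these libraries.

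A ribosome is built from ribosomal RNA and from about equal amounts of each ribosomal protein, so the mRNAs of these proteins are among the most abundant of a growing cell. Most of these mRNAs start with a cytosine and a run of pyrimidines, the terminal oligopyrimidine (TOP) motif, through which the mTOR pathway and the RNA-binding protein LARP1 set how much they are translated and how stable they are. Their genes have left many processed pseudogenes in the human genome. A few genes have intact paralogs, such as RPL10L and RPL3L, which in normal tissues are made mainly in testis and in muscle.

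The first bases of the mRNA carry this shared feature. A start with C followed by 4 bases that are each C or T was present at the annotated start of 58 of the 77 canonical members (75.3%), of 1 of the 7 paralogs found in the annotation and of 913 of 19894 coding genes (4.59%). The sequences below, read from hg19 at the GENCODE start sites, hold 20 bases before the start and the first 10 bases of the mRNA, with the run of pyrimidines from the start in capitals. They are RPL13A, the canonical member with the lowest ratio, RPL35A, a high member with nearly equal values, and 3 parents each with its paralog.
RPL13A (chr19:49990845-49990874, + strand): ccctgcgacaaaacctcctcCTTTTCCaag
RPL35A (chr3:197677041-197677070, + strand): ccacgcggcggggcctcgtcCTTCTCTTac
RPL22 (chr1:6259646-6259675, - strand): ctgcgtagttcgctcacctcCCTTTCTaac
RPL22L1 (chr3:170587975-170588004, - strand): gaccgcgcggccgtagcttcCTCTCTgctc
RPL10 (chrX:153626698-153626727, + strand): atgcgcaggcggaggagcgcCTCTTTCCCT
RPL10L (chr14:47120975-47121004, - strand): gcgcgcaggcgtagttaagagagcgcattt
RPS27 (chr1:153963218-153963247, + strand): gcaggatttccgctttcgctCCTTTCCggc
RPS27L (chr15:63449667-63449696, - strand): cccggaagttgatgccgagcgcagatcgct
RPL22L1 was the only paralog with such a start, while RPL10L and RPS27L have no pyrimidine at the start. The 300 bases around the start were rich in CpG in the canonical members, with a median observed to expected ratio of 0.920 against 0.777 for all coding genes.

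The FPKM worth of a read was nearly the same in both libraries, while the sums of FPKM differed. A single read on 1 kb of effective length was worth 0.0235 FPKM in the untreated library and 0.0236 FPKM in the DAC library, as 712 and 736 low values fell within 0.1 of whole reads. The sum of FPKM over all transcripts was 589238 before and 480455 after DAC, a ratio of 0.815. Multiplied by transcript length, which brings FPKM close to fragments, the ratio of the sums was 0.824. Of the markers of this mesenchymal-like line, VIM was at 3066 and 1134 FPKM and CD44 at 212 and 139 FPKM. FN1, also mesenchymal, was higher after DAC, at 39.8 and 111 FPKM. CDH1, the epithelial cadherin, was at 0 and 0.179 FPKM, ESR1 at 0 and 0.0193, PGR at 0 and 0.0555 and GATA3 at 0.795 and 1.71 FPKM. The epithelial keratins KRT8 and KRT18 were present, at 154 and 141 and at 174 and 164 FPKM. EPCAM was at 7.90 and 9.78 FPKM and ERBB2 at 11.8 and 12.7 FPKM. RNA45S5, the ribosomal RNA precursor, was listed at 0 FPKM in the untreated library with Cuffdiff's status for too many fragments, and at 113 FPKM after DAC, so that it gave no comparison.

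The mRNAs of the canonical members were high in both libraries and mostly lower after DAC. Of the 77, 73 reached 1 FPKM in at least 1 library. Their values ran from 4.47 to 2627 FPKM in the untreated library with a median of 652, and from 3.21 to 2257 FPKM after DAC with a median of 525. Among 100 symbols with the highest mean FPKM, short RNAs left out, 41 were canonical members. After DAC 67 of the 73 were lower and 6 higher, where 56.9% of the 12525 symbols at 1 FPKM or more were lower. The median ratio of DAC to untreated was 0.802 over the members, a log2 ratio of -0.32, and 0.938 over all symbols, a log2 ratio of -0.09. The difference was of small size for most members: 6 of 73 were more than 1.5-fold lower (8.22%), against 15.5% of all symbols, and 2 were more than 2-fold lower, against 4.82%. In the other direction, RPS26 and RPL41 passed 1.5-fold (2 of 73, against 17% of all symbols) and 0 members passed 2-fold (against 10.8%).

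**Figure D1:**
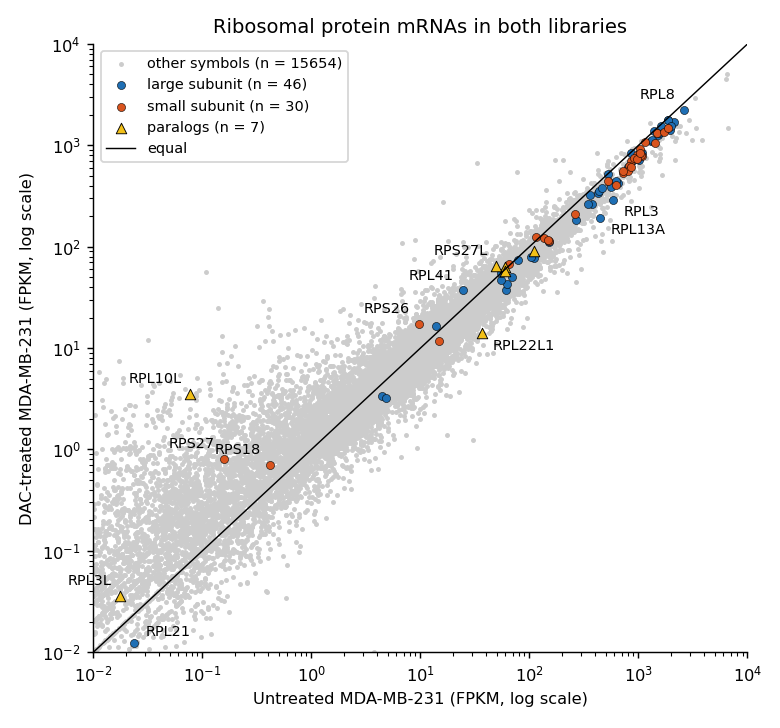
FPKM of each symbol in the untreated (x) and the DAC-treated (y) MDA-MB-231 library, both on log scales, for symbols that reached 0.01 FPKM in each library. The canonical members of the large (blue) and small (orange) subunits gather at high FPKM a little under the line of equal values, and RPL10L and RPL22L1 are the paralogs (yellow triangles) farthest from it.

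This direction rests on how the libraries are scaled. Together the canonical members made up 9.42% of the FPKM sum in the untreated library (55517 FPKM) and 9.43% after DAC (45310 FPKM), so their share was nearly the same. When both libraries were given the same FPKM sum, which raises every log2 ratio by 0.29, the members' median log2 ratio was -0.02, with 44 lower and 29 higher, and that of all symbols was 0.20, with 33.2% lower. When the ratios were divided by the median ratio of symbols that reached 1 FPKM in each library, 0.912, which raises log2 ratios by 0.13, the members' median was -0.19, with 59 of 73 lower, and that of all symbols was 0.04, with 46.9% lower. A scaling shifts all symbols alike. On a fixed set of symbols the members' median minus that of all symbols was thus -0.225 on the log2 scale under each. With the filter of 1 FPKM applied again after scaling it lay between -0.235 and -0.225. Other filters on low values moved this difference more: it was -0.40 without a filter and -0.15 with 5 FPKM asked for. In fragments, with FPKM multiplied by length, the members' share was 3.49% in the untreated library and 3.39% after DAC. Whether the cells held less ribosomal protein mRNA or the libraries were scaled unequally cannot be told apart in these data, nor can fewer cells of a type be told from less RNA per cell.

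The subunits did not separate. The 45 large-subunit members that passed the filter had a median ratio of 0.805 and summed to 33994 FPKM untreated and 28184 FPKM after DAC. The 28 small-subunit members had a median ratio of 0.797 and sums of 21523 and 17126 FPKM. The medians were 0.02 apart on the log2 scale, and both subunits held members at both ends of the order.

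**Figure D2:**
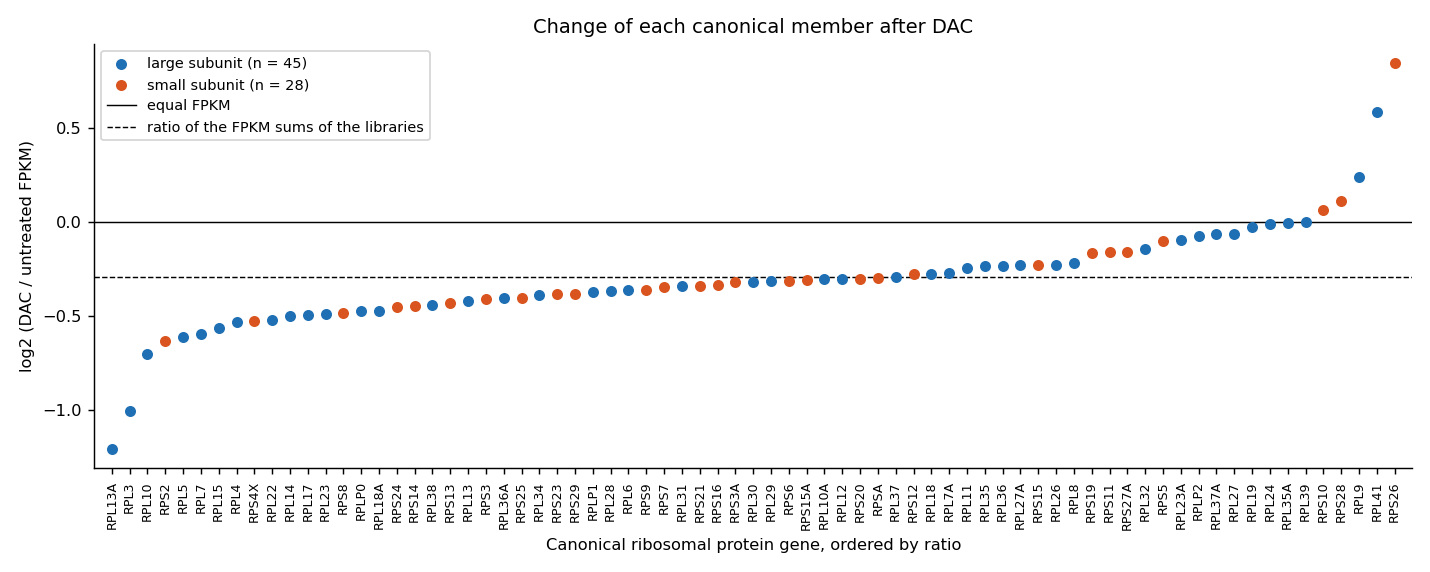
log2 ratio of DAC to untreated FPKM for the 73 canonical members at 1 FPKM or more, ordered by ratio and coloured by subunit. The solid line marks equal FPKM and the dashed line the ratio of the libraries' FPKM sums (log2 -0.29); most members lie near the dashed line, with RPL13A and RPL3 lowest and RPS26 and RPL41 highest.

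Among the canonical members that passed the filter, the 5 lowest ratios were those of RPL13A, RPL3, RPL10, RPS2 and RPL5. RPL13A, which also forms part of an inhibitor of translation in interferon-treated cells, was at 442 FPKM untreated and 191 FPKM after DAC, a ratio of 0.433. RPL3, which lies near the peptidyl transferase centre, was at 582 and 290 FPKM, a ratio of 0.499. RPL10, which joins the large subunit late in its assembly, was at 60.9 and 37.5 FPKM. RPS2, a protein of the small subunit, was at 625 and 404 FPKM, a ratio of 0.646. RPL5, which binds 5S rRNA, was at 652 and 426 FPKM, a ratio of 0.655. RPL7, the remaining member past 1.5-fold, was listed at only 4.85 and 3.21 FPKM. The share of coding sequence found elsewhere in the genome, set out below, was 74.5% for RPL13A, 45.2% for RPL3 and 85.7% for RPL10. It was 78.0% for RPS2, 38.5% for RPL5 and 99.7% for RPL7.

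At the higher end most members had low listed values. RPS26 was at 9.62 and 17.3 FPKM, a ratio of 1.80, and RPL41, the smallest ribosomal protein, at 24.6 and 36.97 FPKM, a ratio of 1.501. RPL9 was at 13.9 and 16.4 FPKM. RPS28 at 115 and 125 FPKM, RPS10 at 65.1 and 68.0 FPKM and RPL39 at 54.8 and 54.9 FPKM completed the 6 that were higher. All 6 have more than 90% of their coding sequence elsewhere in the genome, as set out below. None of the 58 members with a mean of 100 FPKM or more was higher other than RPS28.

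By mean FPKM of both libraries the most abundant members were RPL8, RPL30 and RPL27. RPL8 was at 2627 and 2257 FPKM, RPL30 at 2102 and 1686 FPKM, and RPL27 at 1862 and 1781 FPKM. Their ratios were 0.859, 0.802 and 0.956, at or above the median of the members. The ribosomal stalk, which recruits elongation factors, is made of RPLP0, RPLP1 and RPLP2. RPLP0 was at 622 and 448 FPKM, a ratio of 0.721, RPLP1 at 1987 and 1537 FPKM, a ratio of 0.774, and RPLP2 at 1621 and 1540 FPKM, a ratio of 0.95. All 3 stalk proteins were lower in the DAC library as deposited, and the bounds of their transcripts overlapped. RPL11, the partner of RPL5 in the 5S particle that can bind MDM2, was at 1500 and 1266 FPKM, a ratio of 0.844 against 0.655 for RPL5. RPSA, of the small subunit, was at 260 and 212 FPKM, and RPS27A, which is made as a fusion with ubiquitin, at 135 and 121 FPKM.

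The errors that the file gives were wide beside these differences. Cuffdiff's upper bound lay above the value by 45.1 to 75.6% of it in the untreated library (median 51.0%) over 42 members with a single transcript and at least 50 FPKM, and by a median of 49.8% after DAC. For RPL13A the bounds were 214 to 671 FPKM untreated and 87.8 to 295 FPKM after DAC, and for RPL5 298 to 1005 and 212 to 640 FPKM. Of the 122 member transcripts at 1 FPKM or more, 0 had bounds that did not overlap between the libraries, where 1.6% of 17744 transcripts did. Overlap of the bounds is a coarse criterion and no test: for RPL13A the difference between the libraries was larger than the distance from value to bound in either library.

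Transcripts of one gene could differ where the gene's sum did not show it. RPL17 has 8 listed transcripts. Its NM_001199341 was at 41.4 and 8.93 FPKM and its NM_001199345 at 0 and 22.1 FPKM, while the gene's sum was at 110 and 77.8 FPKM. RPS24 has 6 listed transcripts, which differ at the 3' end by small exons. NM_001026 was at 870 and 474 FPKM and NM_033022 at 559 and 571 FPKM, so the ratio of the former to the latter was lower after DAC, within overlapping bounds. RPL15 has 6 transcripts, of which NM_001253383 was the highest at 172 and 104 FPKM. RPL13A was represented by a single non-coding RefSeq transcript, NR_073024, with its 2 coding transcripts listed at 0 in both libraries. The split of fragments among transcripts that share most exons is an estimate of Cuffdiff.

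The members were next set beside other symbols of the same level. Between 100 and 500 FPKM the 18 members had a median ratio of 0.796 and 762 other symbols, short RNAs left out, one of 0.826. At 500 FPKM or more all 40 members were lower, with a median of 0.804 and a range of 0.646 to 0.998, while 43 of 53 other symbols were lower, with a median of 0.721. The members at that level thus had a higher median than other symbols as abundant, and a narrower spread, with quartiles of the log2 ratio of -0.41 and -0.22 against -0.77 and -0.17. Over the other symbols the median ratio went down with level, from 1.05 at 1 to 10 FPKM through 0.899 at 10 to 50 and 0.861 at 50 to 100 FPKM. Few members had low values: the 2 at 1 to 10 FPKM had a median of 0.708 and the 5 at 10 to 50 FPKM, 2 of them lower, one of 1.18. From 50 FPKM upwards the members' medians did not go down with level: the 8 members at 50 to 100 FPKM had a median of 0.809, and the 17 with a mean of 1000 FPKM or more one of 0.851. Over the 66 members at 50 FPKM or more Spearman's rho of mean FPKM with the log2 ratio was 0.184 (Pearson's r 0.196), a description across genes of 1 pair of libraries. With the same FPKM sum in both libraries, 24 of the 40 members and 36 of the 53 other symbols at 500 FPKM or more were lower, with median log2 ratios of -0.02 and -0.18.

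**Figure D3:**
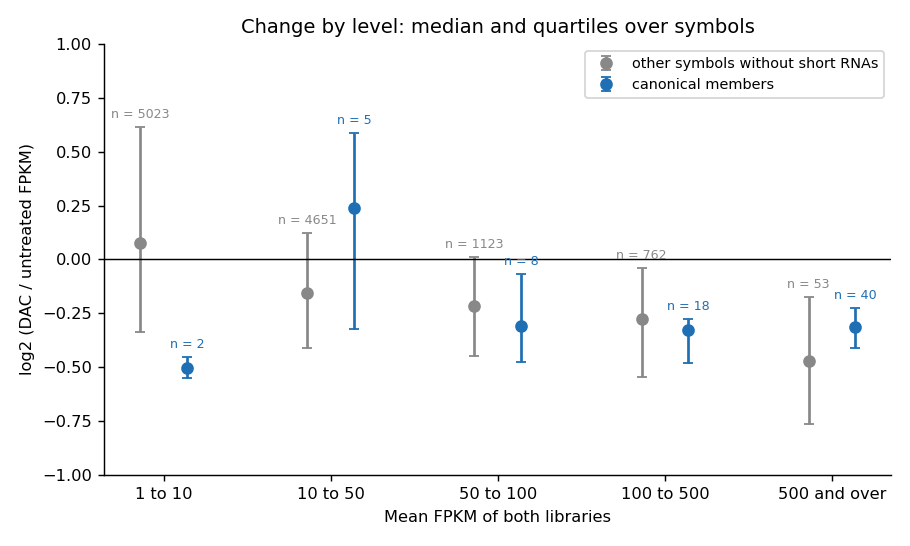
Median log2 ratio of DAC to untreated FPKM by mean FPKM of both libraries, for canonical members (blue) and other symbols without short RNAs (grey), with bars from the lower to the upper quartile over symbols and the number of symbols above each. The grey medians decline from 0.08 to -0.47 with level, while the blue ones lie between -0.33 and -0.31 from 50 FPKM upwards.

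Longer transcripts had lower ratios among other genes and, less evenly, among the members. Of the members at 50 FPKM or more, 24 with a mean transcript length under 600 bases had a median ratio of 0.817, 27 between 600 and 1000 bases one of 0.811, and 15 of 1000 bases or more one of 0.747, with all 15 lower. RPL35A, a short member, was at 1388 and 1385 FPKM, and RPL4, a long one, at 559 and 387 FPKM; both are named after their values were seen. Spearman's rho of length with the log2 ratio was -0.358 over 66 members (Pearson's r -0.187) and -0.331 over 1937 other symbols at 50 FPKM or more (Pearson's r -0.258). Other short symbols lay higher than the members: 74 under 600 bases had a median ratio of 1.004 and 272 between 600 and 1000 bases one of 0.943. The part of fragment or RNA length in these ratios was not tested.

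The listed level of a member followed how much of its sequence has copies. Each coding sequence was cut into all windows of 50 bases, and the share that also occur, base for base, outside the gene was counted. The count was made in the primary assembly of hg19, which leaves out alternate sequences. The 19 members with under 20% of their windows elsewhere had mean values of 390 to 2442 FPKM, with a median of 1402. The 37 members between 20 and 80% had a median of 539 FPKM, and the 21 with 80% or more a median of 54.8 FPKM and a highest value of 303 FPKM. Across the 77 members Spearman's rho of this share with mean FPKM was -0.839 (Pearson's r -0.809). The ratio showed no such relation, with a rho of -0.0542 over 73 members (Pearson's r 0.0759). All 54 members with under 80% of windows elsewhere that passed the filter were lower after DAC, as were 13 of the 19 with 80% or more. How the aligner placed reads with several matches was not tested.

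Canonical members that did not pass the filter had copies too. RPL21, with 100% of its windows elsewhere and 133 pseudogene symbols in the annotation, was at 0.0237 and 0.0122 FPKM. RPS27, with 100% elsewhere, was at 0.159 and 0.799 FPKM, which are 1 and 5 reads. RPS18 has 53.6% elsewhere in the primary assembly, which may understate its copies. It has 6 listed rows of the same RefSeq transcript, of which only 1 was above 0, at 0.416 and 0.698 FPKM. These values are not read as absence of the mRNAs.

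**Figure D4:**
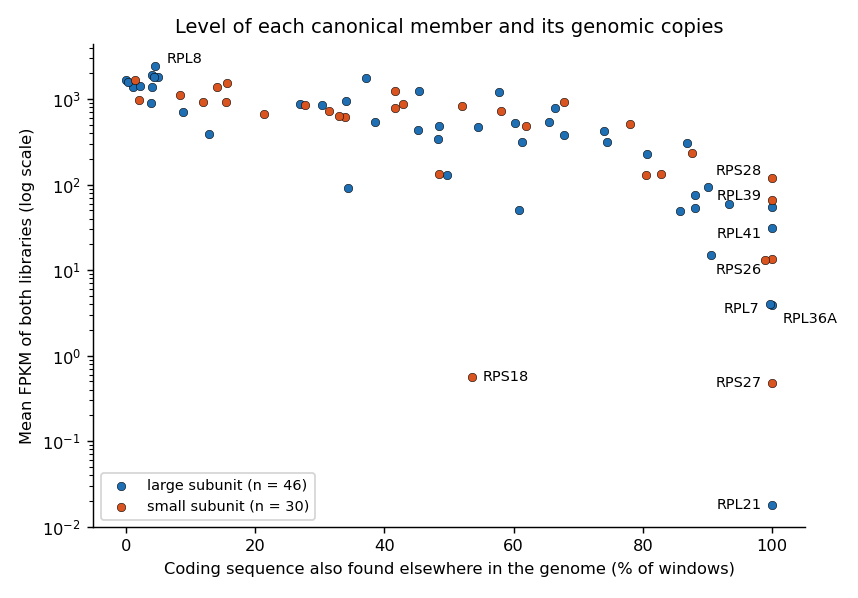
Mean FPKM of both libraries (log scale) against the share of 50-base windows of the coding sequence that occur elsewhere in hg19, for the canonical members above 0 FPKM. Members with under 20% of windows elsewhere lie at 390 to 2442 FPKM, and RPL21, RPS27, RPL7 and RPL36A, with all or nearly all windows elsewhere, lie lowest. RPS18 stands apart at 53.6%, a share of the primary assembly that may understate its copies.

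The paralogs did not move together. RPL22L1, whose coding sequence is 65.4% identical to that of RPL22, was at 36.6 FPKM untreated (bounds 19.6 to 53.5) and 14.0 FPKM after DAC (6.03 to 21.9), a ratio of 0.381, lower than that of any canonical member. Its parent RPL22 was at 62.0 and 43.2 FPKM, a ratio of 0.697. RPL10L, a gene without introns that is 89.1% identical to RPL10, was at 0.0775 and 3.51 FPKM, which are 2 and 90 reads. The ratio of 45.3 has an exact interval for counting error alone of 12.2 to 380 (95%), Cuffdiff's bounds of 0 to 0.268 and 0 to 8.27 FPKM overlap, and 0.169% of its windows occur elsewhere. RPL10L was thus far higher in reads after DAC, though at a level well under the 37.5 FPKM of RPL10.

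The remaining paralogs had ratios nearer to 1 or were hardly detected. RPS27L, 77.8% identical to RPS27, was at 49.7 and 64.6 FPKM, a ratio of 1.30. RPL26L1 was at 60.0 and 62.9 FPKM, a ratio of 1.05, and its parent RPL26 at 1302 and 1113 FPKM, a ratio of 0.855. RPL39L was at 110.9 and 90.5 FPKM, a ratio of 0.816, against 54.8 and 54.9 FPKM for RPL39, all of whose windows have copies elsewhere. RPL7L1, 54.0% identical to RPL7, was at 59.2 and 57.4 FPKM. RPL3L, the muscle paralog of RPL3, was at 0.0177 and 0.0356 FPKM, which are 1 and 2 reads.

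Many members carry small nucleolar RNAs (snoRNAs), which guide the modification of ribosomal RNA, in their introns. The 29 canonical hosts had a median ratio of 0.794 over the 28 that passed the filter, and the 48 without an annotated snoRNA one of 0.806 over 45. Of 50 snoRNA symbols inside members that were listed at 1 FPKM or more, 38 were lower after DAC. The 4 of RPL13A were all lower: SNORD34 was at 1015 and 383 FPKM, SNORD35A at 290 and 106, SNORD32A at 303 and 169, and SNORD33 at 316 and 223 FPKM. The 4 of RPL4, whose own ratio was 0.693, differed: SNORD16 was at 142 and 363 FPKM and SNORD18B at 169 and 255 FPKM, both higher, SNORD18A at 169 and 170 FPKM, and SNORD18C at 681 and 572 FPKM, which was lower. Among all 109 SNORD symbols at 1 FPKM or more, 73 were lower, with a median ratio of 0.614. Of the 33 SNORD symbols inside members 26 were lower, with a median of 0.604. Of all 378 short RNA symbols at 1 FPKM or more, 205 were lower. Reads of unspliced host RNA and of the snoRNA itself cannot be told apart here.

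Other genes of the translation machinery were lower to varying degree, where 56.9% of all symbols were lower and, of other symbols with short RNAs left out, 73.7% at 50 to 100 FPKM and 78.1% at 100 to 500 FPKM. Of 24 elongation factors and other mRNAs of the TOP class, 23 were lower, with a median ratio of 0.746. GNB2L1, the small-subunit protein RACK1, was at 1653 and 1191 FPKM, TPT1 at 1452 and 1035 FPKM and NPM1, a nucleolar chaperone with the lowest ratio, at 516 and 249 FPKM. FAU, which codes for the small-subunit protein RPS30, was the 1 that was higher, at 625 and 770 FPKM. Of 32 genes of ribosome assembly 25 were lower (median 0.835), with NCL at 725 and 489 FPKM, NOP10 at 326 and 306, NOP58 lowest in ratio at 129 and 77.6, and RRP12 highest at 35.2 and 50.3 FPKM. All 12 non-coding snoRNA hosts, whose RNAs also start with a TOP motif in several cases, were lower (median 0.653), from SNHG3 at 44.3 and 15.2 FPKM to SNHG16 at 26.02 and 24.4 FPKM, with SNHG5 at 465 and 242 and SNHG8 at 327 and 220 FPKM.

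Genes with related roles lay on both sides once the libraries were scaled. Of 75 mitochondrial ribosomal proteins 54 were lower (72.0%, median 0.875), a share near that of other symbols at 50 to 100 FPKM, with MRPL51 at 328 and 297 FPKM, MRPL36 at 169 and 211, MRPL30 lowest in ratio at 21.3 and 10.3 and MRPS11 highest at 32.2 and 47.4 FPKM. With equal FPKM sums their median log2 ratio turned to 0.10, above zero, where the canonical members stayed at -0.02. Of 19 cytosolic tRNA synthetases 17 were lower (median 0.821), with TARS at 335 and 190 FPKM, SARS at 267 and 231, MARS lowest in ratio at 60.9 and 33.3 and HARS highest at 74.4 and 81.9 FPKM. Of 15 regulators of ribosomal protein synthesis 11 were lower (median 0.821). RPTOR, a subunit of the mTOR complex, was at 14.7 and 5.42 FPKM, the transcription factor ATF4 at 161 and 80.3, and EIF4EBP1, an inhibitor of cap-dependent translation, at 135 and 107 FPKM. MYC, a driver of ribosomal protein genes named here after its value was seen, was at 95.6 and 95.5 FPKM. Of 29 other abundant mRNAs 27 were lower (median 0.639), with TMSB10 at 6323 and 4468 FPKM, FTL at 3281 and 2909, VIM lowest in ratio and B2M highest at 515 and 628 FPKM. The abundant mRNAs thus had a lower median than the ribosomal protein mRNAs.

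**Figure D5:**
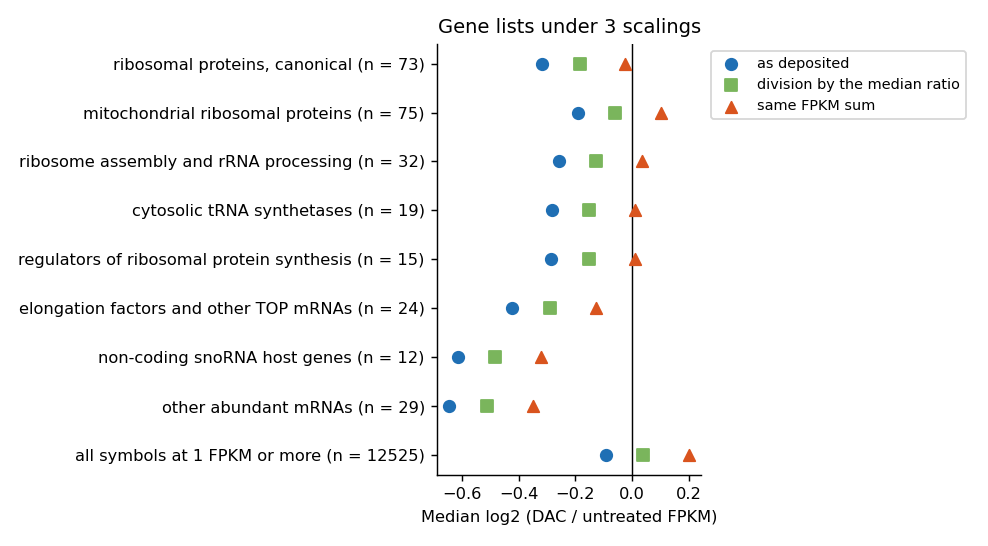
Median log2 ratio of DAC to untreated FPKM of each gene list under 3 scalings: as deposited, divided by the median ratio, and with the same FPKM sum in both libraries. The 3 lists at the bottom above all symbols (abundant mRNAs, snoRNA hosts and TOP mRNAs) stay below zero under each, the canonical members end at -0.02, and mitochondrial ribosomal proteins, assembly genes, tRNA synthetases and regulators cross zero.

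In HMLER only risers could be looked up. The table holds 2009 transcripts of 1854 symbols, each at least 2.001-fold higher after DAC, with the values of the 2 libraries per condition merged into 1, so that no spread between libraries could be given. RPS27L was the only member of the 85 listed, at 61.7 FPKM untreated and 141 FPKM after DAC, a ratio of 2.28, against 1.30 in MDA-MB-231. The other 84, all 77 canonical members among them, were not in the list, while 10.9% of the 12525 symbols that passed the filter in MDA-MB-231 and 7.08% of the 2176 with a mean of 50 FPKM or more were. Whether members were lower in HMLER was not analysed here. RPS27L was the 1 member seen at a higher value in both lines, but a smaller rise of other members in HMLER could not be seen. Its bounds in MDA-MB-231, 25.3 to 74.2 FPKM untreated and 34.1 to 95.1 FPKM after DAC, overlapped.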

How the data were processed

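RNA-seq was compared between untreated and DAC-treated MDA-MB-231 (1 library each) and HMLER (2 libraries each). The authors aligned reads to hg19 with TopHat2 and deposited FPKM per RefSeq transcript from Cuffdiff on the Galaxy server, with lower and upper bounds for MDA-MB-231. Library scaling and the treatment of reads with several matches are not given in the sources used here. The columns with the authors' fold changes, p-values and q-values were not used. A label gives another line number for the untreated MDA-MB-231 library, and its title was followed. Read numbers were recovered only for low single-transcript genes, from what 1 read is worth after taking 203 bases from the length; intervals and reads cover counting error only.

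FPKM of a symbol's transcripts were summed, symbols at 1 FPKM or more in at least 1 library were kept, and ratios were taken without a pseudocount. Short RNAs are the MIR, SNORD, SNORA, SCARNA, RNU and RN7S symbols. All transcripts of the members had status OK. Start sites, snoRNAs and coding sequences came from GENCODE lifted to GRCh37 (hg19); 84 of 85 members matched. Some genes that the naming rule covers are not reported here. Identity was computed from pairwise alignment of coding sequences. Members, lists and levels were chosen with earlier results of these data known. Genes were named by rule: the 5 lowest and 5 highest ratios, the 3 highest and lowest levels, paralogs with parents, members in HMLER, those with most transcripts, RPL5, RPL11, the stalk, RPSA and RPS27A, and of each list the 2 highest and the extremes of ratio. The summaries were tested on simulated data. Alternatives were other scalings, a pseudocount, other filters, the largest transcript, status and subsets of members. Python 3.11.15, numpy, pandas, scipy, Biopython and matplotlib were used.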

Additional observations from a re-analysis of the deposited data

How the results depend on the processing

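No paired analysis was possible because MDA-MB-231 has 1 library per condition and the HMLER values are merged over libraries, so no sample could be left out either. The scaling of the libraries decided most of the counts. With the same FPKM sum in both libraries 44 of 73 canonical members were lower, 2 more than 1.5-fold and 0 more than 2-fold, with a median log2 ratio of -0.0236, which is -0.235 from that of all symbols. Leaving the members out of that sum gave 44, 2, 0, -0.0233 and -0.235, and leaving the short RNAs out gave 2, 0, -0.0744 and -0.233 for the last 4 of these. Division by the median ratio gave 2 past 1.5-fold, 1 past 2-fold, a median of -0.186 and a difference of -0.231. With the largest transcript in place of the sum, 10 were past 1.5-fold and 1 past 2-fold, the median was -0.312, the difference from all symbols -0.215, large minus small subunit 0.0351, and the members' share of the FPKM sum after DAC 1.015 times that before. A pseudocount of 1 gave a median of -0.311. Without a filter the difference from all symbols was -0.401 and large minus small subunit 0.0014, and with 5 FPKM asked for they were -0.153 and 0.026, with a median of -0.312. In the members with 1 transcript 38 of 41 were lower, 3 past 1.5-fold and 0 past 2-fold, with a median of -0.301, a difference of -0.208, a subunit difference of 0.0663 and a share ratio of 1.033. Subsets chosen after seeing the data gave a subunit difference of 0.0301 for members at 50 FPKM or more, and, for members with under 50% of windows elsewhere, 39 of 39 lower, 2 past 1.5-fold and 1 past 2-fold, a subunit difference of 0.0554 and a share ratio of 1.011. No alternative turned the sign of the members' median, of its difference from all symbols or of the subunit difference. The scalings could not turn the subunit difference, as they shift all members alike. They could change the difference from all symbols only through the filter on low values. The median of all symbols turned from -0.0931 to 0.0392 with division by the median ratio and to 0.201 with the same FPKM sum. With the same sum the medians of mitochondrial ribosomal proteins, assembly genes, tRNA synthetases and regulators turned too. The count of members listed in HMLER was the same at 1 FPKM or more in both conditions. Depth limits the low members, where single reads set the value, and the snoRNAs, whose short length lets few reads give a high FPKM.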

Other observations

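Some ribosomal protein pseudogenes have a RefSeq transcript of their own and were listed beside their parents. Of 28 such symbols listed for MDA-MB-231, 15 reached 1 FPKM in at least 1 library, 8 of them lower and 7 higher after DAC, with a median ratio of 0.997. RPL13AP5, a copy of RPL13A, was at 24.3 FPKM untreated and 112 FPKM after DAC, a ratio of 4.59, while RPL13A was at 442 and 191 FPKM. RPL13AP20 was at 18.6 and 32.0 FPKM, and RPL13AP6 at 16.1 and 9.83 FPKM. Reads of a gene and of its copies can be split between them by the aligner, so the values of RPL13A and RPL13AP5 are uncertain.

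In HMLER 5 of these 28 pseudogene symbols were listed among the transcripts that were higher after DAC. Of all symbols at 1 FPKM or more in MDA-MB-231, 10.9% were listed there, but many of the 28 were under that level. RPL13AP20 was at 1.41 and 8.19 FPKM, RPS2P32 at 0.133 and 1.73, RPL23AP7 at 0.908 and 3.14, RPL23AP53 at 3.82 and 8.42, and RPL23AP82 at 2.03 and 4.82 FPKM. In MDA-MB-231 4 of these 5 had a higher value after DAC, with RPL23AP7 at 2.65 and 2.06 FPKM the exception. There 5401 of all 12525 symbols at 1 FPKM or more were higher, and 7 of 15 pseudogene symbols. Most of the values were low: RPS2P32 was at 0.114 and 0.345 FPKM, RPL23AP53 at 0.429 and 1.07, and RPL23AP82 at 0.824 and 1.07 FPKM. The HMLER table also held 1 transcript each of 4 of the 76 mitochondrial ribosomal protein genes, MRPL21, MRPL33, MRPL52 and MRPS12. Of these MRPL33 was the highest at 57.5 and 125 FPKM.

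RPL36AL, a ribosomal protein gene outside the naming rule, was at 530 FPKM untreated and 343 FPKM after DAC, a ratio of 0.647, while RPL36A was listed at 4.47 and 3.37 FPKM with 100% of its windows elsewhere.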
